A study of Homo sapiens with 18 samples.

Results

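Binding of the Ewing sarcoma fusion protein EWSR1-FLI1 and of the Polycomb protein RING1B was described around 3 genes, APCDD1, XKR4 and DCDC2, which hold some of the highest-scoring EWSR1-FLI1 peaks of the A673 cell line. Every peak within 100 kb of the hg19 gene body was taken from 5 deposited lists. These were EWSR1-FLI1 (1 sample), RING1B (2 replicates) and histone H2A monoubiquitination (H2Aub1, 2 replicates). This gave 65 of 45354 peaks, of which 10 of 2145 were EWSR1-FLI1 peaks. RING1B contributed 10 of 2573 peaks in replicate 1 and 13 of 3945 in replicate 2. H2Aub1 contributed 16 of 26423 peaks in replicate 1 and 16 of 10268 in replicate 2. The members were chosen by their EWSR1-FLI1 peak scores, with RING1B results of the same lists known, so their values are given as a description and no test was run on them.

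All 5 samples are chromatin immunoprecipitation sequencing (ChIP-seq) libraries of A673, an established line from 1 Ewing sarcoma, grown without treatment. The labels give an MBL antibody for RING1B, a Cell Signalling antibody for H2Aub1 and an Abcam antibody for EWSR1-FLI1. No label tells whether the replicates are separate cultures, so their agreement may be technical. Of the 18 samples of the series, 13 were not analysed here, namely the inputs, the BMI1 and CBX7 samples and those of the RING1B knockdown.

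EWSR1-FLI1 joins part of EWSR1 to the ETS factor FLI1, whose DNA-binding domain recognises the core GGAA. The fusion also binds tandem GGAA repeats, where it can turn closed chromatin into an active enhancer. RING1B, a catalytic subunit of Polycomb repressive complex 1, places the H2Aub1 mark, which usually accompanies gene silencing. APCDD1 encodes a membrane glycoprotein that inhibits Wnt signalling. XKR4 encodes a membrane protein of the XK family that scrambles phospholipids after caspase cleavage. DCDC2 encodes a doublecortin-domain protein that binds microtubules and is found in the primary cilium.

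The strongest EWSR1-FLI1 peak lay inside APCDD1 and XKR4 but before the start of the DCDC2 body used, which is shorter than the RefSeq record. Scores are the authors' own, on a scale that no source states, so each is read by its rank among the peaks of its own list. The XKR4 peak had the highest score of the list (2117.51, rank 1 of 2145), APCDD1 followed at rank 3 (1754.78) and DCDC2 at rank 4 (1736.5). Rank 2 was held by a peak on chromosome 22 (30831196 to 30832450, score 2091.39), so these are not the 3 strongest sites of the list. The median score of all EWSR1-FLI1 peaks was 93.9. Each of the 3 sites was also wide, at 1467 bp for APCDD1, 1554 bp for XKR4 and 1329 bp for DCDC2, against a list median of 985 bp. The other 7 of the 10 highest-scoring peaks were 892 to 1604 bp wide, so width does not set these 3 apart.

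**Figure D1:**
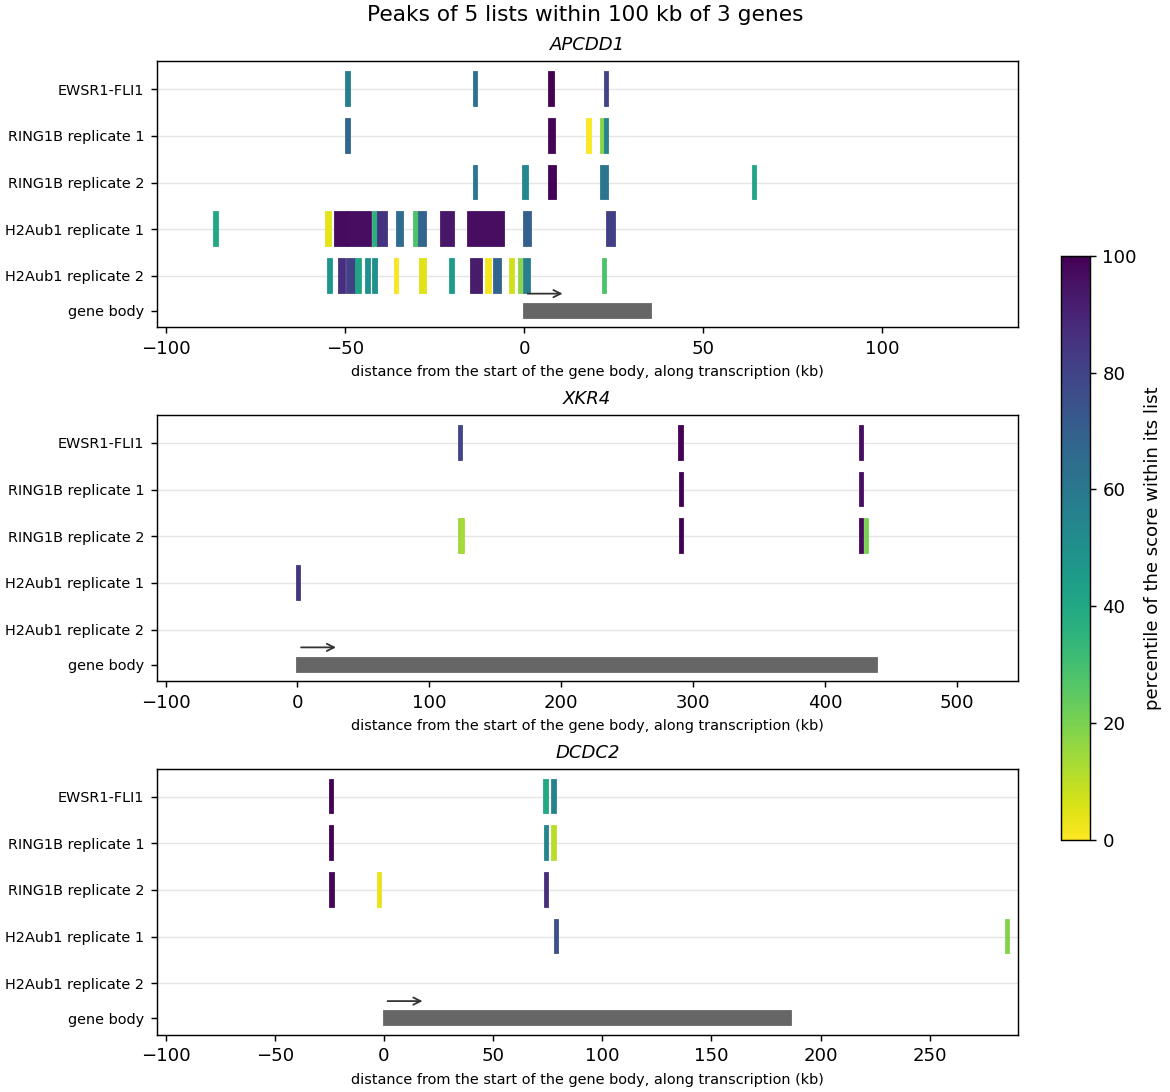
Positions of the 65 peaks along APCDD1, XKR4 and DCDC2, with 1 row per list; the x axis is the distance in kb from the start of the gene body along transcription, the grey bar is the gene body and colour gives the percentile of the score within its list. Peaks are drawn at least 0.4% of the axis wide, and the darkest EWSR1-FLI1 and RING1B bars stand at 7.76 kb (APCDD1), 291 and 428 kb (XKR4) and 24.0 kb before the start (DCDC2).

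APCDD1 (chromosome 18, 10454625 to 10489948, plus strand, 35.3 kb) held 4 EWSR1-FLI1 peaks, 2 of them inside the gene and 2 upstream. The strongest lay at 10461652 to 10463118, with its centre 7.76 kb after the gene start and at 22.0% of the body. A second inside peak, at 10477235 to 10478169 and 23.1 kb after the start, scored 220.01. The upstream peaks were centred 13.5 kb (10440581 to 10441602, score 122.95) and 49.2 kb (10404920 to 10406028, score 110.1) before the start. The strongest peak thus stood far above its neighbours, which ranked 424, 808 and 913 in the list.

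XKR4 (chromosome 8, 56014949 to 56454613, plus strand, 440 kb) held 3 EWSR1-FLI1 peaks, all inside the gene body. They were centred 124 kb (56138226 to 56139082, score 219.17), 291 kb (56305113 to 56306666, score 2117.51) and 428 kb (56442074 to 56443367, score 571.95) after the start. In this long gene the strongest site thus lay well inside the body, at 66.2% of its length. The peak at 428 kb ranked 77 of 2145 and was 11.9 kb from the far end of the body. With 1 list of this factor, none of these scores has a replicate check.

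DCDC2 (chromosome 6, 24171983 to 24358280, minus strand, 186 kb) held its strongest EWSR1-FLI1 peak upstream of this hg19 body. That peak lay at 24381587 to 24382915, with its centre 24.0 kb before the start and its near edge 23.3 kb from the body. Both other peaks were inside, one 74.3 kb after the start (24283495 to 24284491, score 80, rank 1291) and one 77.9 kb after it (24279967 to 24280865, score 104.01, rank 961). RefSeq's GRCh38 gene record of DCDC2 lists 2 transcripts and is longer than the hg19 body used here. It reaches 25.2 kb beyond the promoter table's start on the upstream side, slightly more than the 24.0 kb to the centre of this peak. The strong site may therefore lie inside a longer transcript or near its start, and exons and introns were not assigned for any of the 3 genes.

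No EWSR1-FLI1 peak just outside the 100 kb limit scored near the strongest sites. The nearest lay 130 kb from XKR4 (score 166.03), 169 kb from APCDD1 (104.93) and 178 kb from DCDC2 (117.14). Within the limit the farthest lay 48.6 kb from the APCDD1 body. By RefSeq gene order the protein-coding neighbours are VAPA and NAPG for APCDD1, RP1 and TMEM68 for XKR4, and NRSN1 and MRS2 for DCDC2. The gene KAAG1 overlaps DCDC2, and XKR4-AS1 overlaps XKR4. Expression was not analysed here, so the peaks are placed by position and not assigned to a target gene.

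RING1B covered the strongest EWSR1-FLI1 site of each gene in both replicates. At XKR4 the RING1B score was 2082.32 in replicate 1 and 1416.76 in replicate 2, rank 10 in both lists. At APCDD1 it was 1188.99 (rank 30) and 1110.69 (rank 22), so both replicates placed the site at a like rank. The DCDC2 site scored 1702.24 (rank 16) in replicate 1 and 714.14 (rank 64) in replicate 2. The replicates thus differed most in rank at DCDC2, where the site still stood at the 98.4 percentile or above of each list.

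**Figure D2:**
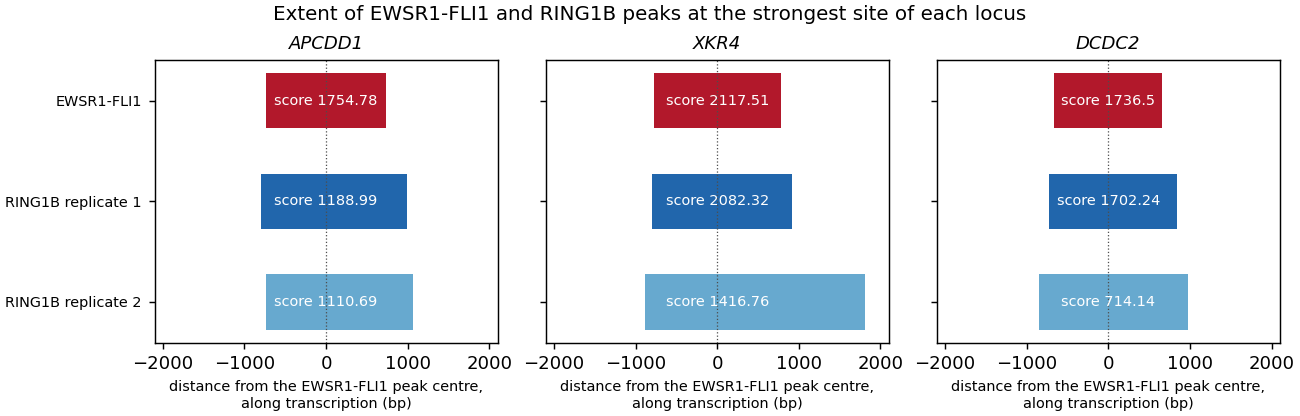
Extent of the EWSR1-FLI1 peak and of the RING1B peak of each replicate at the strongest site of APCDD1, XKR4 and DCDC2; the x axis is the distance in bp from the EWSR1-FLI1 peak centre along transcription and the number in each bar is the authors' score. RING1B spans the whole EWSR1-FLI1 peak at all 3 sites in both replicates, and the replicate 2 peak at XKR4 runs on by 1028 bp beyond it.

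RING1B peaks enclosed the EWSR1-FLI1 peak completely at these 3 sites in both replicates. At DCDC2 the centres were 55 bp apart in replicate 1 and 63 bp in replicate 2, and at APCDD1 94 and 161 bp. At XKR4 they were 61 and 460 bp apart. The larger value came from a RING1B peak of 2689 bp in replicate 2, which ended 1028 bp beyond the EWSR1-FLI1 peak, against a peak of 1710 bp in replicate 1, which ended 139 bp beyond it. RING1B was thus listed further toward the far end of the gene in replicate 2. The 428 kb site of XKR4 was likewise enclosed by RING1B in both replicates. Enclosure was not counted over the whole EWSR1-FLI1 list, so it is not read as particular to the strongest sites.

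Over all 10 EWSR1-FLI1 peaks of the loci, 8 overlapped RING1B in replicate 1 (80%, 95% Wilson interval 49.0 to 94.3%). In the whole EWSR1-FLI1 list 54.5% did so. In replicate 2 it was also 8 of 10 (80%, 49.0 to 94.3%), with 54.7% in the whole list. All 10 overlapped RING1B in at least 1 replicate (whole list 67.6%), and 6 in both (60%, 31.3 to 83.2%, whole list 41.6%). An overlap is 1 shared bp or more. The intervals cover counting error alone and treat peaks of 1 locus as independent, so nothing is read from how they stand to the whole list.

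The 6 EWSR1-FLI1 peaks with RING1B in both replicates were the strongest site of each gene, the 428 kb site of XKR4, the 23.1 kb site of APCDD1 and the 74.3 kb site of DCDC2. At the 428 kb site of XKR4 RING1B scored 681.0 (rank 103) and 581.95 (rank 90). At the 23.1 kb site of APCDD1 it scored 98.34 and 91.46, and at the 74.3 kb site of DCDC2 96.29 and 190.39. The last pair differs in rank, 1174 in replicate 1 and 539 in replicate 2, at the EWSR1-FLI1 peak with the lowest score of the 10. A low EWSR1-FLI1 score thus went with RING1B in both replicates at 1 site.

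**Figure D3:**
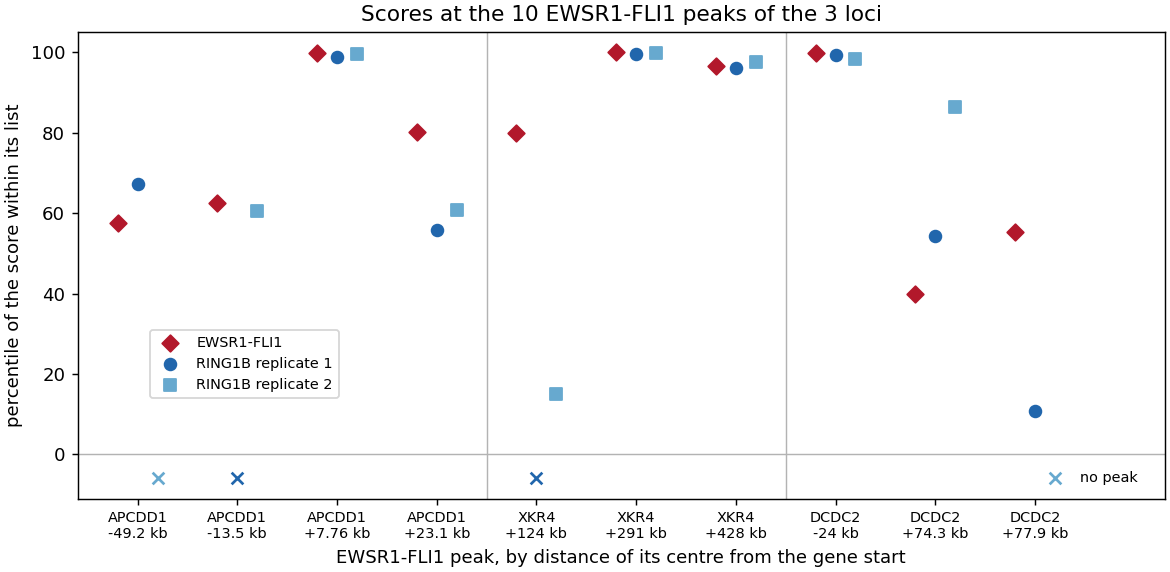
Percentile of the score within its own list at the 10 EWSR1-FLI1 peaks, ordered along APCDD1, XKR4 and DCDC2, for EWSR1-FLI1 (diamonds), RING1B replicate 1 (circles) and replicate 2 (squares); crosses mark lists with no peak there. The 4 sites at 7.76, 291 and 428 kb and 24.0 kb before the start are at the 96.0 percentile or above in all 3 lists, and 4 sites have a cross in 1 RING1B replicate.

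At the other 4 EWSR1-FLI1 peaks RING1B was listed in 1 replicate alone, a class that holds 26.1% of the whole list. Replicate 1 alone covered the site 49.2 kb before APCDD1 (RING1B score 127.91) and the 77.9 kb site of DCDC2 (54.95). Replicate 2 alone covered the site 13.5 kb before APCDD1 (91.23) and the 124 kb site of XKR4 (55.66). The 4 peaks had EWSR1-FLI1 scores of 104.01 to 219.17, against 80 to 2117.51 at the 6 with both replicates. The ranges overlap, but the medians were 117 and 1154. The 6 include the sites for which the loci were chosen. Outside the loci the median was 84.9 over 555 peaks with RING1B in 1 replicate and 166 over 886 with both. For the site 77.9 kb into DCDC2, the nearest RING1B peak of replicate 2 was 2269 bp away, and for the 124 kb site of XKR4 the nearest of replicate 1 was 166 kb away. The 2 RING1B scores of 54.95 and 55.66 lie near the lowest score in the lists, which was 50 in both replicates.

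Seen from RING1B, 7 of the 10 peaks of replicate 1 at the loci were found again in replicate 2 (70%, 39.7 to 89.2%), with 62.6% in the whole list. Of the 13 peaks of replicate 2, 6 were found again in replicate 1 (46.2%, 23.2 to 70.9%), with 40.9% in the whole list. Both shares are near those of the whole lists. The 6 replicate 2 peaks scored 91.46 to 1416.76, and the 7 peaks of that replicate that were not found again scored 51.4 to 91.23. These groups are parted only narrowly, and the same split was not made over the whole list, so nothing is read from it. In replicate 1 the 7 peaks found again scored 59.25 to 2082.32 and the other 3 scored 50.32 to 127.91, with overlap. A peak of 1977 bp in replicate 2 at APCDD1 (10476174 to 10478150) covered 2 peaks of replicate 1, of 868 and 992 bp, which is why 7 peaks match 6.

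**Figure D4:**
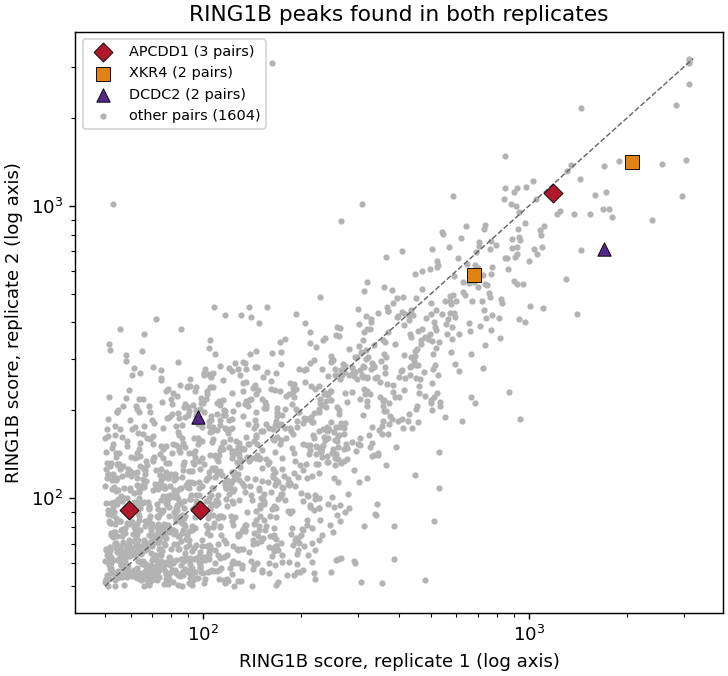
RING1B score in replicate 2 against replicate 1, both on log axes, for RING1B peaks of replicate 1 that overlap a peak of replicate 2; coloured symbols are the 7 pairs at APCDD1, XKR4 and DCDC2, grey points are the 1604 other pairs and the dashed line marks equal scores. The DCDC2 upstream site (1702.24 and 714.14) lies below the line, and the APCDD1 site (1188.99 and 1110.69) lies close to it.

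The ratio of replicate 1 to replicate 2 scores varied among the loci. With no stated scale and unknown depth, this ratio does not measure a difference in binding and is read only beside other pairs. It was 2.38 at the DCDC2 upstream site, 1.47 at the strongest XKR4 site and 1.07 at the strongest APCDD1 site. Outside the loci the median ratio was 1.05 over 1604 pairs, with 10th and 90th percentiles of 0.485 and 2.12. Among the 252 other pairs in the top 10% of replicate 1 scores the median was 1.38, with percentiles of 0.842 and 2.42. The DCDC2 ratio thus lay between these percentiles, near the upper one. Inside DCDC2 the 74.3 kb site went the other way, with a ratio of 0.506.

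RING1B peaks without EWSR1-FLI1 scored at most 82.8, beside list medians of 88.9 in replicate 1 and 78.2 in replicate 2. There were 2 in replicate 1, both in APCDD1 (10472327 to 10473298, score 50.32, and 10476223 to 10477090, score 59.25). Replicate 2 had 5, with scores of 51.4 to 82.8. Those around APCDD1 lay at its start and 28.5 kb beyond the end of its body. The DCDC2 peak lay 1.52 kb upstream of the body used. Those in XKR4 lay next to its 124 and 428 kb sites, with gaps of 628 and 2434 bp. EWSR1-FLI1 was present at 8 of 10 RING1B peaks in replicate 1 (80%, whole list 45.4%) and at 8 of 13 in replicate 2 (61.5%, whole list 29.7%). Because the loci were picked for EWSR1-FLI1 with RING1B results known, nothing is read from these shares or scores. RING1B scores with and without EWSR1-FLI1 were not compared over the whole lists.

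The distance between EWSR1-FLI1 and RING1B centres was like that elsewhere in replicate 1. Over the 8 overlapping pairs it ran from 6 to 154 bp, with a median of 57.0 bp, against a median of 62.5 bp over 1161 pairs outside the loci (interquartile range 29.5 to 110 bp). In replicate 2 it ran from 8 to 540 bp, with a median of 124 bp, against 65.5 bp over 1166 pairs (29.5 to 129 bp). The 2 values above 400 bp came from the wide replicate 2 peaks at XKR4 and at the 23.1 kb site of APCDD1.

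H2Aub1 separated APCDD1 from the other genes. Around APCDD1 the mark was listed in 13 peaks in replicate 1 and 16 in replicate 2, of which 11 and 14 lay upstream. XKR4 had 1 peak in replicate 1 and 0 in replicate 2, and DCDC2 had 2 and 0. The upstream peaks of APCDD1 covered 34.3 kb in replicate 1 and 20.1 kb in replicate 2. In replicate 2 they were spread over the stretch from 10399812 to 10454073, which ends 552 bp before the gene. In replicate 1 all but 1 of them lay between 10399485 and 10449009. The highest score was 596.94 in replicate 1 (rank 806, 10401849 to 10405456) and 251.43 in replicate 2 (rank 728, 10439800 to 10442802). A replicate 1 peak that covered that replicate 2 peak scored 583.86 (rank 834), close to the highest of its replicate.

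Such a density of H2Aub1 peaks was uncommon in the lists. Of 30306 bins of 100 kb, 1.63% held at least 11 H2Aub1 peaks in replicate 1. In replicate 2, 0.132% of 30214 bins held at least 14. Most bins held no peak. Of the 7626 bins with any peak in replicate 1, 494 held at least 11, and of the 4188 in replicate 2, 40 held at least 14. Bins were compared by number of peaks and not by length covered, and windows anchored at gene starts were not compared. In replicate 2 the 16 peaks around APCDD1 had a median score of 75.2, below the list median of 78.7. Limiting that list to its highest-scoring 50% left 6 of these 16. Bins ran to the last peak of each chromosome other than Y and did not leave out assembly gaps. The replicates also divide the mark differently, since a 9928 bp peak of replicate 1 (10439082 to 10449009) contained 3 separate peaks of replicate 2.

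**Figure D5:**
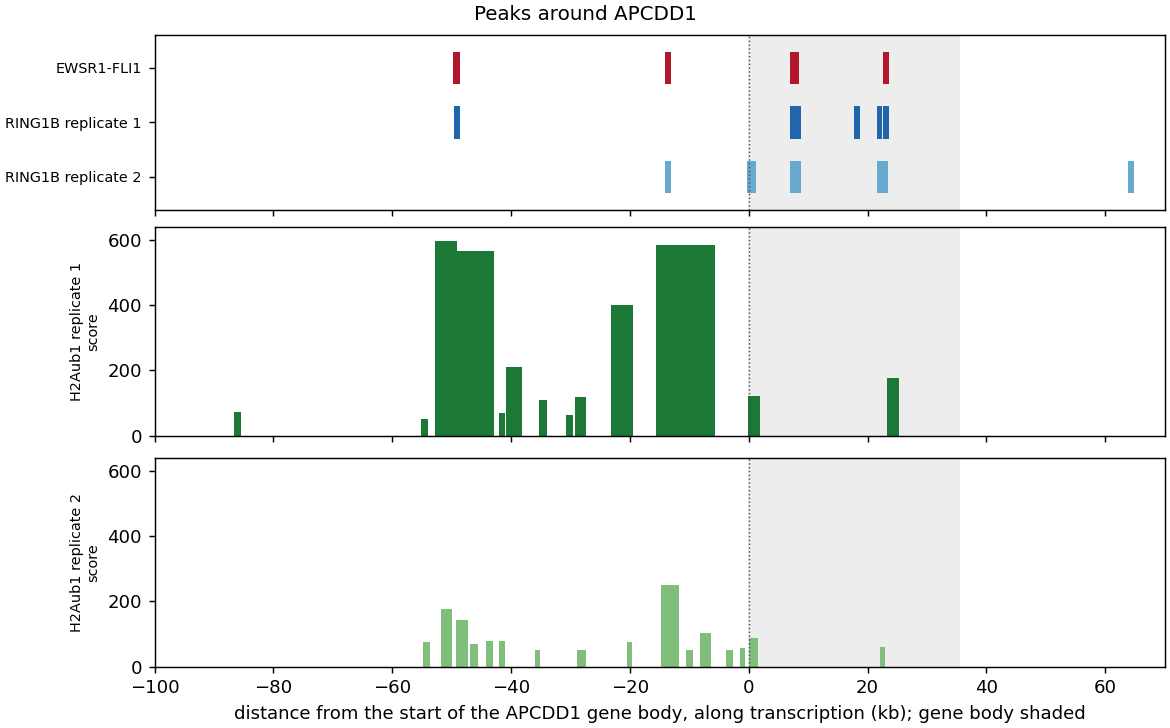
Peaks around APCDD1 by distance in kb from the gene start, with the gene body shaded; the top panel shows EWSR1-FLI1 and RING1B peaks, and the lower panels show each H2Aub1 peak as a bar as wide as the peak and as high as its score in replicates 1 and 2. The mark lies mostly upstream of the start, with scores up to 596.94 in replicate 1 and 251.43 in replicate 2, and the strongest EWSR1-FLI1 peak at 7.76 kb has no H2Aub1 peak.

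Of the 13 H2Aub1 peaks of replicate 1 at APCDD1, 9 were found again in replicate 2, and of the 16 of replicate 2, 13 were found again in replicate 1. Over the 3 loci these were 9 of 16 (56.2%, whole list 26.6%) and 13 of 16 (81.2%, whole list 77.3%). None of the 3 H2Aub1 peaks at XKR4 and DCDC2 in replicate 1 was found again. Among them, 1 covered the start of XKR4 (56014793 to 56016605, score 205.85) and 1 lay inside DCDC2 (24278621 to 24280118, score 145.59). Marks at XKR4 and DCDC2 thus rest on 1 replicate, which has the longer list.

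The strongest EWSR1-FLI1 site of each gene carried no H2Aub1 peak in either replicate, like most of the list, in which 15.1% of peaks overlapped the mark in at least 1 replicate. The nearest H2Aub1 peak was 5193 bp (replicate 1) and 5486 bp (replicate 2) from the APCDD1 site. It was 289 and 818 kb from the XKR4 site and 101 and 151 kb from the DCDC2 site. At APCDD1 these nearest peaks were those at the gene start, not those of the upstream stretch.

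H2Aub1 did cover 4 of the 10 EWSR1-FLI1 peaks in at least 1 replicate (40%, 16.8 to 68.7%), with 15.1% in the whole list. By replicate it covered 4 in replicate 1 (whole list 14.6%) and 3 in replicate 2 (whole list 7.37%). These were the 77.9 kb site of DCDC2, marked in replicate 1, and the 3 weaker APCDD1 peaks. The APCDD1 peaks, at 49.2 and 13.5 kb before and 23.1 kb after the start, each overlapped H2Aub1 in both replicates (whole list 6.85%). At the 23.1 kb site the H2Aub1 peaks of the replicates did not overlap each other. They covered opposite ends, 37.1% (replicate 1) and 26.4% (replicate 2) of the EWSR1-FLI1 peak. The 4 marked peaks had EWSR1-FLI1 scores of 104.01 to 220.01, against 80 to 2117.51 for the 6 peaks without the mark. These 6 include the sites for which the loci were chosen, so nothing is read from the contrast. Outside the loci the median score was 94.7 over 320 marked peaks and 93.1 over 1815 without the mark. When at least 50% of the shorter peak had to be shared, 2 of the 10 counted as marked, and 1 did when centres had to lie within 500 bp. That 1 peak was the site 13.5 kb before APCDD1, which lies wholly within H2Aub1 peaks of both replicates. RING1B was listed in 1 replicate alone at 3 of the 4 marked peaks and in both replicates at the other. Of the 320 marked EWSR1-FLI1 peaks outside the loci, 89 had RING1B in 1 replicate and 123 in both. Of all RING1B peaks at the loci, 3 of 10 in replicate 1 shared sequence with H2Aub1 of replicate 1 (30%, whole list 24.1%). In replicate 2, 3 of 13 did so with H2Aub1 of replicate 2 (23.1%, whole list 12.6%), all of them around APCDD1.

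At the gene starts the lists differed between the genes, and no EWSR1-FLI1 peak covered a start of the gene bodies used. For DCDC2 the start of the longer RefSeq record was not placed in hg19, so peaks there were not assessed. The start of APCDD1 was covered by RING1B in replicate 2 (10454372 to 10455860, score 82.8) and by H2Aub1 in replicate 1 (10454535 to 10456459, score 123.2). An H2Aub1 peak of replicate 2 began 60 bp after it (10454685 to 10456166, score 86.72). RING1B of replicate 1 had no peak there. The start of XKR4 carried H2Aub1 in replicate 1, and the start of the DCDC2 body used carried no peak of any list, the nearest RING1B peak (replicate 2, score 51.4) being 1.52 kb upstream.

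The promoters of APCDD1 and DCDC2 are shown because Polycomb-related peaks lay at the start of the first, with RING1B in replicate 2 alone. The start of the DCDC2 body used carried none, and that of the longer record was not assessed. Sequences are RefSeq's for GRCh38.p14, with 1 start per gene, from 250 bases before to 50 after the start, read 5′ to 3′ along the gene. Capitals mark the core GGAA on either strand (TTCC on the printed strand). APCDD1 is at chr18:10454385-10454684 (plus strand) and DCDC2 at chr6:24358010-24358309 (minus strand), in a build other than that of the peaks.
APCDD1: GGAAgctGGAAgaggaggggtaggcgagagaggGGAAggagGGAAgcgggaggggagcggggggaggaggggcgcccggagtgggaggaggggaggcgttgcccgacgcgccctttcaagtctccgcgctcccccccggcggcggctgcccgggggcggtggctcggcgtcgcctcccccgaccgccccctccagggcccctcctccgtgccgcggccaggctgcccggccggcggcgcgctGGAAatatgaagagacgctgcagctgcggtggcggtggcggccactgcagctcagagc
DCDC2: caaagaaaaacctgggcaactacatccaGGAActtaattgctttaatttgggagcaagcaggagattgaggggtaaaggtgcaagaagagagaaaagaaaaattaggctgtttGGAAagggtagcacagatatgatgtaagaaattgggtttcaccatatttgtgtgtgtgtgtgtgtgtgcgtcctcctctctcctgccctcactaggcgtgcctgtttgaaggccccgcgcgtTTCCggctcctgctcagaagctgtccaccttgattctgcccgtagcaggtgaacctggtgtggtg

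The APCDD1 promoter had a GC content of 76.0% and 33 CpG dinucleotides, against 49.0% and 7 for DCDC2. At least as many CpGs were found in 17.2% of 35116 RefSeq promoters of this length for APCDD1 and in 63.2% for DCDC2. GGAA occurred 5 times in the APCDD1 window, all on the printed strand, and 3 times in the DCDC2 window, counting both strands. At least as many were found in 28.6% of promoters for APCDD1 and in 66.0% for DCDC2. The core was present in 95.5% of all promoters, so its presence sets neither apart. The tandem repeat GGAAGGAA, searched on both strands and overlapping the core, was found in neither window and in 3.67% of all promoters. Of the 3 genes, 2 were matched in the promoter table, and the DNA of the EWSR1-FLI1 sites themselves was not analysed here.

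Among the 10 highest-scoring EWSR1-FLI1 peaks, the RING1B ranks of the 3 sites overlapped those of the other 7. The 3 genes were chosen with RING1B results known. RING1B ranks ran from 10 to 30 in replicate 1 and from 10 to 64 in replicate 2, against 13 to 283 and 13 to 217 at the other 7 peaks. The ranges overlap: the peak on chromosome 14 at 97681430 to 97682785 ranked 15 and 13, and that on chromosome 2 at 177520547 to 177521787 ranked 13 and 31. In replicate 2, peaks on chromosome 18 (3742081 to 3743399, rank 19) and chromosome 10 (88507146 to 88508328, rank 59) also stood above the DCDC2 site (rank 64). The lowest RING1B ranks, 283 and 217, were those of a peak on chromosome 12 (89672334 to 89673225), and the chromosome 22 peak with the second-highest EWSR1-FLI1 score ranked 220 and 114. RING1B was present in both replicates at all 10. H2Aub1 was listed at 0 of the 3 sites and at 1 of the other 7, in replicate 1.

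Other EWSR1-FLI1 peaks lay near each of the 3 sites. Within 150 kb the APCDD1 site had 3, the DCDC2 site 2 and the XKR4 site 1, against 0 to 6 at the other 7 of the top 10. Over the whole list 44.2% of EWSR1-FLI1 peaks had at least 1 such neighbour, 18.7% had at least 2 and 7.27% had at least 3.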

How the data were processed

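ChIP-seq peak lists of 5 of the 18 samples (A673 cells) were used as deposited. Bowtie and hg19 are named for all 5, and mm9 for RING1B and H2Aub1 with no role given, per the submitters' processing notes. Peak names begin with MACS, per the files. Versions, the background used and filters are not given in the sources used here. Each peak's score is the authors' deposited value, and no read counts were used, so depth is unknown. There was 1 list per sample.

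Gene bodies are hg19 intervals, and the start is the end of the body from which the gene is read. Strands of APCDD1 and DCDC2 came from RefSeq, that of XKR4 from general annotation. Peaks were written 1-based, placed by their centre and called overlapping at 1 shared bp (Python 3.11.15, pandas 2.3.3), and shares have 95% Wilson intervals (SciPy 1.17.1). The overlap rule was tested on simulated data. All peaks of the 3 genes were described; others were named if among the 10 highest EWSR1-FLI1 scores or nearest to a locus. Members and comparisons were chosen with earlier results of these data known. Alternatives changed the overlap rule, window, score threshold, placement, ranking and replicates used.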

Additional observations from a re-analysis of the deposited data

How the results depend on the processing

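Of 52 alternative values for 16 results, 37 stayed within tolerance and 15 did not. The tolerance was a factor of 1.5 for a count, the 95% Wilson interval for an EWSR1-FLI1 percentile and 1 SD between replicates for a RING1B percentile, so a count could move from 16 to 24 within it and a percentile from 99.9 to 100 outside it. No result has a test or a direction to reverse. All 10 EWSR1-FLI1 peaks counted when RING1B in at least 1 replicate was enough. Without either RING1B replicate the count was 8, and without H2Aub1 replicate 1 or 2 the count of EWSR1-FLI1 peaks with the mark was 3 to 4. That count was 2 when 50% of the shorter peak had to be shared and 1 with centres within 500 bp. When each list was limited to its highest-scoring 50%, 8 RING1B peaks of replicate 2 and 6 H2Aub1 peaks of replicate 2 were counted, and a window of 250 kb held 26 H2Aub1 peaks of replicate 2. Ranked by width in place of score, the strongest EWSR1-FLI1 peaks fell at percentiles 94.2 (APCDD1), 95.6 (XKR4) and 90.5 (DCDC2), and those of RING1B at 91.0, 93.3 and 88.9. Within its own chromosome the APCDD1 site was at percentile 100 for EWSR1-FLI1 and 98.4 for RING1B, and the DCDC2 site at 100 for EWSR1-FLI1. The cause was not tested for any of these. No paired analysis was possible because no result comes from a test over samples, and EWSR1-FLI1 has 1 list. Depth is unknown, so a missing peak cannot be told from a peak below the caller's threshold.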
